A study of Mus musculus with 12 samples.

Results

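The 42 genes described here work in germ cells and in meiosis, and they were chosen by name with earlier results of these data known. Their shares of calls, set beside those of all genes below, are therefore descriptions and no test of the list. Each of the 42 matched 1 of the 36521 genes in the deposited tables. RNA was sequenced from V6.5 cells, a line of mouse embryonic stem cells, in 3 groups of 4 libraries. The parental cells carried no hairpin, the Tet1kd cells the vector pSUPER-puro-Tet1shRNA and the Tet2kd cells the vector pSUPER-puro-Tet2shRNA. Both vectors were brought in by electroporation, cells were selected with puromycin on SNL76/7-4 feeder cells, and single clones were picked and grown on. All groups were grown with serum and leukemia inhibitory factor. No group had a control hairpin, nor do the labels say how many clones stand behind the 4 libraries of a knockdown. The knockdown, the vector, the selection and the choice of clones therefore cannot be told apart. The labels call the libraries biological replicates without naming separate cultures, so p-values measure only the spread between these libraries, which may be technical.

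Tet1 and Tet2 are enzymes that oxidize 5-methylcytosine in DNA. Many germline genes have promoters rich in CpG, the site of DNA methylation, and are kept low in embryonic stem cells and in somatic cells by DNA methylation and by a polycomb complex that holds the DNA-binding proteins E2F6, MGA and MAX. During germ cell development these genes come on in steps: RNA-binding proteins and entry factors first, then the piRNA pathway, which silences transposons, then the cohesins, axis proteins and recombination enzymes of meiosis, in which homologous chromosomes pair, synapse and exchange DNA. Tet1 is known for a part in switching on meiotic genes in germ cells of the mouse embryo.

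The depth was 14.6 to 31.6 M reads in the parental libraries and was estimated at 15.8 to 39.7 M in the Tet1kd and 14.4 to 31.1 M in the Tet2kd libraries. Values per library are normalized counts (reads divided by a size factor that evens out depth), recovered from the deposited group means and put on 1 scale for all groups. The libraries of a group carry the letters a to d by depth, since nothing ties them to the numbered samples. Libraries a and b were deeper and c and d shallower, and the 4 libraries of each group also fell into 2 pairs that deviated together (a with d and b with c in the parental and the Tet2kd group, a with c and b with d in the Tet1kd group). The 4 libraries of a group may thus be 2 samples sequenced 2 times each, which was not settled here. Non-overlap of 4 libraries and leaving out 1 library would then not rest on 4 separate samples. With each pair averaged to 1 value, limma called 21 of the 22 members that had been called in Tet1kd and entered its fit. In Tet2kd it called 10 of 10. Tet1 RNA stood at 25.2% of parental in Tet1kd and Tet2 RNA at 50.9% of parental in Tet2kd in the authors' deposited tables. Tet2 RNA was also higher in Tet1kd, at 118% of parental (adjusted p = 0.0186), and Tet1 RNA stood at 117% in Tet2kd (adjusted p = 0.104), in the authors' deposited tables. The embryonic stem cell markers were present in all groups, with Pou5f1, Nanog and Sox2 at parental means of 14167, 16339 and 10105 in the authors' deposited table. Of 10 such markers 5 were higher and 1 lower in Tet1kd, with log2 fold changes of 1.2 for Klf4, 0.92 for Tdgf1, 0.74 for Utf1 and -0.39 for Sall4, and 1 (Sox2, 0.28) was higher in Tet2kd, in the authors' deposited tables. Markers of feeder fibroblasts moved with the groups: the summed normalized count of 15 of them ran from 9084 to 9606 in the parental, from 5864 to 6730.0 in the Tet1kd and from 11716 to 12277 in the Tet2kd libraries, and none of the 15 was at 0 in all groups. The part of either marker list in the results on the 42 genes was not tested. In bulk RNA, fewer cells of a type and less RNA per cell cannot be told apart.

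The promoters of 6 genes, chosen after the values of the genes were seen, are shown first as a description. Hormad1, Stk31, Tex19.1 and Tdrd12 were lower than parental in Tet1kd and higher than parental in Tet2kd. Dazl and Dmc1 stood about 2-fold higher in Tet1kd, as did further members such as Tdrd5 and Hormad2. Each sequence is the 250 bases before the RefSeq transcription start (the first start listed where a gene has several) in the build GRCm38.p6, with the letters of TCCCGC (the core bound by E2F6, on either strand) and of CACGTG (the E-box bound by MGA and MAX, which reads alike on both strands) in capitals.
Hormad1: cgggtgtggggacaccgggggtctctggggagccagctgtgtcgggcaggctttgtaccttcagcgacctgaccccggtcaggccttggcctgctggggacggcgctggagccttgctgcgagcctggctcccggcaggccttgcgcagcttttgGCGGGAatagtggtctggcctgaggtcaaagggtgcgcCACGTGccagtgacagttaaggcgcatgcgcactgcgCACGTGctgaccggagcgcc
Stk31: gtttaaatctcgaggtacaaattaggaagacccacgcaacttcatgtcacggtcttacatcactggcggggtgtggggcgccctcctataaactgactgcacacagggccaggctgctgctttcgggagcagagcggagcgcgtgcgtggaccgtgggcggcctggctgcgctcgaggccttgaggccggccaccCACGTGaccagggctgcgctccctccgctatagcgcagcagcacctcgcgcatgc
Tex19.1: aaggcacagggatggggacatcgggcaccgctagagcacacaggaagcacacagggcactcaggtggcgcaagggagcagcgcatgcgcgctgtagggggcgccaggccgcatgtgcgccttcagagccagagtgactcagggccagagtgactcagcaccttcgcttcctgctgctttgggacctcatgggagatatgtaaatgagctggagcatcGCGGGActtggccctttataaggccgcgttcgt
Tdrd12: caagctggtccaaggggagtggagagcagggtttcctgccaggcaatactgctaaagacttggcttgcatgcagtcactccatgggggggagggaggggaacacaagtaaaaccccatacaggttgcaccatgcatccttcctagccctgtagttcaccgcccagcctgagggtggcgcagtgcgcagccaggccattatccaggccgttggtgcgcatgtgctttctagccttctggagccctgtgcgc
Dazl: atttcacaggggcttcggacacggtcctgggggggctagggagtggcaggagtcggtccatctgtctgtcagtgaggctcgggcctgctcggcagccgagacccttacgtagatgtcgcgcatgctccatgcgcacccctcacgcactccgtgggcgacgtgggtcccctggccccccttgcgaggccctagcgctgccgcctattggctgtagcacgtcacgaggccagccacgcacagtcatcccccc
Dmc1: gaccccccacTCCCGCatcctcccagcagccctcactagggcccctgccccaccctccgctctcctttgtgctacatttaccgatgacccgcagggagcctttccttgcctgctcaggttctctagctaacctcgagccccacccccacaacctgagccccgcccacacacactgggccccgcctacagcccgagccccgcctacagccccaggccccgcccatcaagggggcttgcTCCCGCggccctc
Hormad1 held 1 TCCCGC and 2 CACGTG in this window, Tex19.1 held 1 TCCCGC, Stk31 held 1 CACGTG, Dmc1 held 2 TCCCGC, and Dazl and Tdrd12 held neither. Neither motif was present in all of Hormad1, Stk31, Tex19.1 and Tdrd12. The windows lie at chr3:95559427-95559676 (Hormad1, plus strand), chr6:49395289-49395538 (Stk31, plus), chr11:121145893-121146142 (Tex19.1, plus), chr7:35537716-35537965 (Tdrd12, minus), chr17:50293621-50293870 (Dazl, minus) and chr15:79605110-79605359 (Dmc1, minus).

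RefSeq promoters were found for 36 of the 42 genes (those of Dnd1, Piwil2, Tdrd6, Spo11, Tex11 and Tex15 were not matched). In the window from 250 bases before to 50 bases after the start, 15 of 36 promoters held TCCCGC (41.7%, against 22% of the 27025 genes with a promoter) and 15 of 36 held CACGTG (41.7%, against 8.09%). Either motif was in 22 of the 36 (61.1%, against 27.5%) and both were in 8 (22.2%, against 2.65%). In no promoter of a member did the motifs share a base. The median number of CpG was 18.5 in the 36 promoters and 8 over all genes, and the range ran from 0 in Nanos2 to 48 in Tdrd5. Split by the calls in Tet1kd, TCCCGC was in 7 of 11 promoters of genes that were higher, 4 of 9 of genes that were lower and 4 of 16 of genes that were not called. CACGTG was in 2 of 11, 4 of 9 and 9 of 16 of them, and the median number of CpG was 20, 21 and 17. These are descriptions of letters in a window, and no test was made on them. Each motif itself holds a CpG, and the shares over all genes were not matched for the number of CpG.

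Transcripts of nearly all 42 genes were present in the parental cells, but at levels that differed widely. The mean normalized count in the parental libraries was at least 1000 for 6 genes, from 100 to 1000 for 15, from 10 to 100 for 16 and below 10 for 5. Per kb of exon, Tex19.1, a germ cell factor that restrains transposons, had the highest level at 1290.1. It was followed by Syce2, a central element protein of the synaptonemal complex, at 704, by the Tudor domain gene Tdrd12 at 498, by the RNA helicase gene Ddx4 (Vasa) at 382 and by the meiotic cohesin gene Stag3 at 319. Dazl and Dnd1, RNA-binding proteins of germ cells, ranked 12 and 13 of the 42, at 109 and 106. Nanos2 had no read in any parental library, and Asz1, Spo11 and Tdrd6 had 8, 9 and 11 reads in the 4 parental libraries together.

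**Figure D1:**
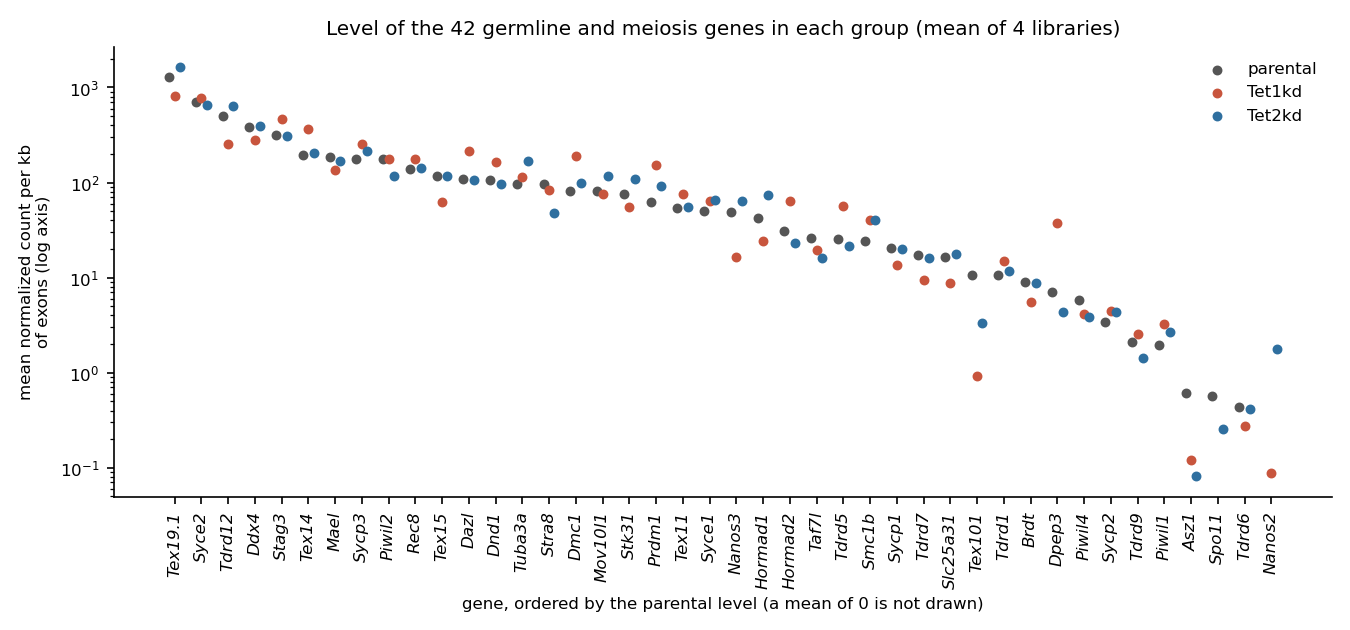
Mean normalized count per kb of exons (log axis) of each of the 42 genes in the parental, Tet1kd and Tet2kd groups (mean of 4 libraries), in the order of the parental level. Levels ran from 1290.1 for Tex19.1 to 0 for Nanos2 in the parental group, and the widest gap between Tet1kd and parental among genes above 1 per kb in parental cells was at Dpep3 (37.7 against 7.14) and Tex101 (0.925 against 10.7).

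The first comparison asked how these genes differ when Tet1 is depleted. In the authors' deposited table for Tet1kd, 23 of the 42 members passed the DESeq adjusted p of 0.05 (54.8%), 13 higher (31.0%) and 10 lower (23.8%). Over all 23120 genes tested there, 30.4% passed, 15.2% higher and 15.3% lower, and among genes with a mean of at least 10, the class of most members, 44.8% passed. The members' median log2 fold change was 0.06, and that of all genes was -0.03. So the members moved both ways, and 7 of the 42 passed with a change of at least 2-fold (16.7%; Nanos3, Prdm1, Tdrd5, Hormad2, Dmc1, Tex101 and Dpep3), as did 8.26% of all genes. The 4 Tet1kd libraries lay entirely above or below the 4 parental ones for 21 of the 37 members with a mean of at least 10, and for Tex101 below that mean. Over all genes with a mean of at least 10 and reads recovered in every library the share was 48.5%. limma on the recovered values called 24 members, where 54.3% of 14367 genes passed. Every member that was called in Tet1kd and entered limma's fit had the same direction in the deeper and in the shallower libraries. Both are parts of the libraries that gave the calls, so this agreement is no independent support.

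The second comparison asked the same for Tet2. In the authors' deposited table for Tet2kd, 10 of the 42 members passed (23.8%), 8 higher (19.0%) and 2 lower (4.76%), where 7.14% of 22949 genes passed, 3.85% higher and 3.29% lower. Among genes with a mean of at least 10, 10.7% passed. The members' median log2 fold change was 0.02 and that of all genes was -0.01. Stra8 was the only called member that changed at least 2-fold (2.38% of the 42), where 0.841% of all genes did so. The Tet2kd libraries lay entirely above or below the parental ones for 11 of the 37 members with a mean of at least 10, and for Tex101 below that mean. Over all genes with a mean of at least 10 and reads recovered in every library, 23.0% did. limma called 11 members, where 19.3% of 14367 genes passed. Each of the 10 called members had the same direction in the deeper and in the shallower libraries, which again are parts of the libraries that gave the calls. Both knockdowns were compared with the same 4 parental libraries, so their values are set side by side below, and the difference between them was tested without the parental libraries' mean.

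**Figure D2:**
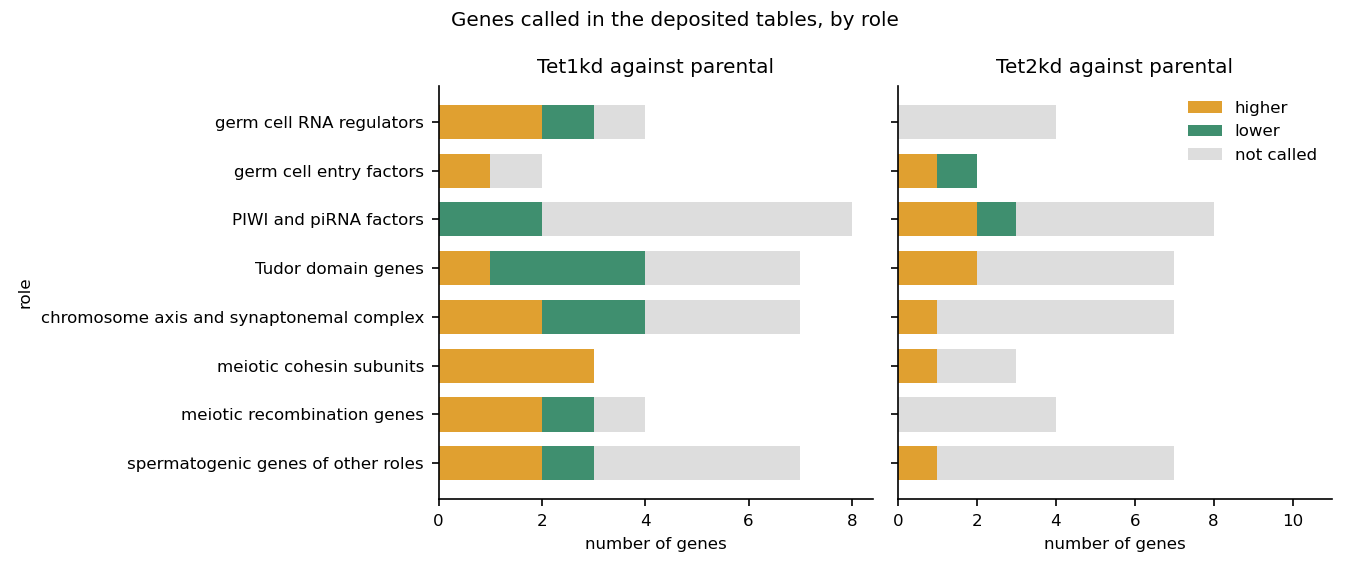
Number of genes in each role that were higher, lower or not called at a deposited DESeq adjusted p of 0.05 in Tet1kd (left) and Tet2kd (right) against parental. The 3 meiotic cohesin genes were all higher in Tet1kd, and the 8 PIWI and piRNA factors held 2 lower and no higher gene there. Over all genes tested, 15.2% were higher and 15.3% lower in Tet1kd, and 3.85% higher and 3.29% lower in Tet2kd.

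Of the germ cell RNA regulators, Dazl and Dnd1 rose and Nanos3 fell in Tet1kd, while none of the 4 was called in Tet2kd. The share called in Tet1kd was 75.0%, against 30.4% of all genes tested. Dazl (ENSMUSG00000010592, chromosome 17), an RNA-binding protein that licenses primordial germ cells to become gametes, had normalized counts of 497, 456, 387 and 329 in parental libraries a to d, 890.5, 934, 773 and 723 in Tet1kd and 399, 508, 356 and 362 in Tet2kd. Every Tet1kd library was above every library of the other groups, which overlapped. Dazl had a log2 fold change of 0.99 in Tet1kd (adjusted p = 4.08e-09) and of -0.04 in Tet2kd (adjusted p = 1.00) in the authors' deposited tables. Within the deeper and the shallower libraries the log2 difference of Tet1kd from parental was 0.94 and 1.07.

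Nanos3 (ENSMUSG00000056155, chromosome 8) keeps migrating primordial germ cells alive. Its normalized counts were 57.4, 47.0, 43.9 and 30.9 in the parental libraries, 7.17, 14.3, 17.7 and 22.1 in Tet1kd and 48.5, 49.5, 56.3 and 82.6 in Tet2kd. The Tet1kd libraries were the lowest without overlap. Nanos3 fell by 1.55 on the log2 scale in Tet1kd (adjusted p = 2e-06), against a log2 fold change of 0.40 in Tet2kd (adjusted p = 0.828), in the authors' deposited tables. The size differed between library depths, with a log2 difference of -2.30 in the deeper and -0.88 in the shallower libraries, and limma's adjusted p was above the threshold in the shallower ones alone. Dnd1 (ENSMUSG00000044595, chromosome 18), which shields germ cell RNAs, had 226 to 280.5 in the parental, 378 to 428 in the Tet1kd and 225 to 243 in the Tet2kd libraries, so the Tet1kd libraries stood apart above the rest. Dnd1 had a log2 fold change of 0.65 in Tet1kd (adjusted p = 2.04e-06) and of -0.12 in Tet2kd (adjusted p = 0.859) in the authors' deposited tables. Its exons share 140 bases with those of Wdr55 on the other strand, and whether the authors counted by strand was not given in the sources used here. Nanos2, a regulator of male germ cells, had 0 reads in the parental, 1 in the Tet1kd and 11 in the Tet2kd libraries, where a count of 0 allows up to 3 reads over the group (counting error only).

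The germ cell entry factors Prdm1 and Stra8 did not move alike: Prdm1 rose in both knockdowns and Stra8 fell in Tet2kd. Prdm1 (BLIMP1, ENSMUSG00000038151, chromosome 10), which specifies primordial germ cells, had normalized counts of 381, 351, 316 and 350.5 in the parental, 817, 925, 770.4 and 880.2 in the Tet1kd and 539.7, 499, 509 and 514 in the Tet2kd libraries. The 3 groups did not overlap, with Tet1kd highest and Tet2kd between. Prdm1 rose with a log2 fold change of 1.28 in Tet1kd (adjusted p = 2.83e-28) and of 0.56 in Tet2kd (adjusted p = 0.00015) in the authors' deposited tables. The difference between the knockdowns was 0.72 ± 0.08 (log2, SE, limma adjusted p = 1.69e-06). Stra8 (ENSMUSG00000029848, chromosome 6), induced by retinoic acid as germ cells enter meiosis, had 171, 176, 183 and 173 in the parental, 149, 107, 185 and 166 in the Tet1kd and 89.7, 80.7, 89.0 and 84.2 in the Tet2kd libraries. Here only the Tet2kd libraries stood apart, below all others, and the Tet1kd libraries spread over and under the parental ones. Stra8 fell by 1.03 on the log2 scale in Tet2kd (adjusted p = 1.56e-06), against a log2 fold change of -0.21 in Tet1kd (adjusted p = 0.262), in the authors' deposited tables. The log2 difference of Tet2kd from parental was -1.02 in the deeper and -1.03 in the shallower libraries.

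Among the 8 PIWI and piRNA factors, 2 fell and none rose in Tet1kd (25.0% called, against 30.4% of all genes tested). In Tet2kd 2 rose and 1 fell (37.5%, against 7.14%). The median log2 fold change of the 8 was -0.46 in Tet1kd and -0.04 in Tet2kd, against -0.03 and -0.01 over all genes. Tex19.1 (ENSMUSG00000039329, chromosome 11) had normalized counts of 2489, 2421, 2303 and 2447 in the parental, 1581, 1561, 1520.4 and 1475 in the Tet1kd and 2992, 3033, 3193 and 2949 in the Tet2kd libraries. The groups were fully separate, with Tet1kd lowest and Tet2kd highest. Tex19.1 fell by 0.65 on the log2 scale in Tet1kd (adjusted p = 9.31e-12) and rose by 0.33 in Tet2kd (adjusted p = 0.00389) in the authors' deposited tables. Within depth the log2 differences were -0.64 and -0.66 for Tet1kd and 0.30 and 0.37 for Tet2kd. It lies beside the paralog Tex19.2, and how reads that match both were counted was not given in the sources used here.

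Piwil2 (MILI, ENSMUSG00000033644, chromosome 14), an Argonaute protein that binds piRNAs and cuts transposon RNA, had 923, 887, 950.5 and 991 in the parental, 930.2, 879.8, 987 and 915 in the Tet1kd and 636, 603, 626 and 619 in the Tet2kd libraries. Parental and Tet1kd libraries covered nearly the same range, and all Tet2kd libraries were below it. Piwil2 fell by 0.60 on the log2 scale in Tet2kd (adjusted p = 1.3e-06), against a log2 fold change of -0.02 in Tet1kd (adjusted p = 1.00), in the authors' deposited tables. Mov10l1 (ENSMUSG00000015365, chromosome 15), the helicase that feeds precursors into piRNA processing, had 294 to 361 in the parental, 278 to 371 in the Tet1kd and 475 to 516 in the Tet2kd libraries, so that only the Tet2kd libraries stood apart. Mov10l1 rose by 0.53 on the log2 scale in Tet2kd (adjusted p = 0.000293), against -0.11 in Tet1kd (adjusted p = 0.698), in the authors' deposited tables.

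Ddx4 (ENSMUSG00000021758, chromosome 13), the Vasa helicase of the germ granule, had 1337, 1157, 975 and 1141 in the parental, 819.9, 954, 711 and 865 in the Tet1kd and 1259, 1237, 1173 and 1127 in the Tet2kd libraries. The highest Tet1kd library was just below the lowest parental one. Ddx4 fell by 0.46 on the log2 scale in Tet1kd (adjusted p = 0.00192), against 0.06 in Tet2kd (adjusted p = 1.00), in the authors' deposited tables. In the authors' deposited table Mael, a germ granule protein of the piRNA pathway, had the same log2 fold change of -0.46 in Tet1kd with an adjusted p of 0.0661, short of the threshold. Its libraries overlapped, at 254 to 397 in the parental and 182 to 273 in the Tet1kd group. limma on the recovered values put Mael past the threshold (adjusted p = 0.00959). The other PIWI genes, Piwil1 and Piwil4, were low in all groups, with means from 8.58 to 14.2 and from 20.9 to 31.2, and neither was called. Asz1, a germ granule protein, had 8 reads in the parental, 1 in the Tet1kd and 1 in the Tet2kd libraries.

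Tudor domain proteins bind the methylated arginines of PIWI proteins and gather them in germ granules. Of the 7 genes, 1 rose and 3 fell in Tet1kd (57.1% called, against 30.4% of all genes tested). In Tet2kd 2 rose (28.6%, against 7.14%). Tdrd12 (ENSMUSG00000030491, chromosome 7), a helicase with Tudor domains, had normalized counts of 2072, 2199, 2232 and 2132 in the parental, 1159, 999, 1248 and 1033 in the Tet1kd and 2742, 2810.3, 2799 and 2694 in the Tet2kd libraries. As for Tex19.1, Tet1kd was lowest and Tet2kd highest, with no overlap. Tdrd12 fell by 0.96 on the log2 scale in Tet1kd (adjusted p = 2.93e-23) and rose by 0.36 in Tet2kd (adjusted p = 0.000841) in the authors' deposited tables. Within depth the log2 differences were -0.99 and -0.94 for Tet1kd and 0.38 and 0.33 for Tet2kd.

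Stk31 (ENSMUSG00000023403, chromosome 6), a Tudor domain protein with a kinase-like domain, had 219, 256, 276 and 239 in the parental, 205, 177, 179.9 and 146 in the Tet1kd and 349, 347, 366 and 341 in the Tet2kd libraries. The same order held, with a narrow gap between Tet1kd and parental. Stk31 fell by 0.49 on the log2 scale in Tet1kd (adjusted p = 0.0176) and rose by 0.50 in Tet2kd (adjusted p = 0.00241) in the authors' deposited tables. The log2 difference from parental was -0.32 in the deeper and -0.66 in the shallower libraries for Tet1kd and 0.55 and 0.46 for Tet2kd, and limma did not call it in the deeper libraries of Tet1kd or the shallower libraries of Tet2kd alone. Its chromosomal surroundings moved as well. The 20 nearest expressed genes, 10 on each side, had a median log2 fold change of -0.78 in Tet1kd and 0.12 in Tet2kd in the authors' deposited tables. For the other 41 genes that neighbour median lay between -0.25 and 0.37 in Tet1kd in the authors' deposited table. Whether the fall of Stk31 is separate from that of its neighbours was not tested.

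Tdrd5 (ENSMUSG00000060985, chromosome 1), needed for germ granule assembly in spermatogenesis, moved the other way. Its normalized counts were 181, 179, 174 and 167 in the parental, 393, 398, 355 and 407 in the Tet1kd and 193, 121, 123 and 162 in the Tet2kd libraries. All Tet1kd libraries were far above the rest, and the Tet2kd libraries lay on both sides of the parental ones. Tdrd5 rose with a log2 fold change of 1.15 in Tet1kd (adjusted p = 9.57e-16), against -0.22 in Tet2kd (adjusted p = 0.671), in the authors' deposited tables. Tdrd7 had 44.6 to 77.2 in the parental, 28.7 to 53.9 in the Tet1kd and 45.9 to 70.2 in the Tet2kd libraries. Tdrd7 fell by 0.87 on the log2 scale in Tet1kd (adjusted p = 0.0131) in the authors' deposited table. The groups overlapped through the lowest parental library (44.6) and the highest Tet1kd library (53.9), and in the deeper libraries alone, which hold both, limma did not call it (-0.56, adjusted p = 0.183). Tdrd1 (means 58.3, 81.5 and 63.3 in the parental, Tet1kd and Tet2kd group) and Tdrd9 (11.5, 13.8 and 7.77) were not called, and Tdrd6 had 11, 9 and 11 reads in these groups.

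**Figure D3:**
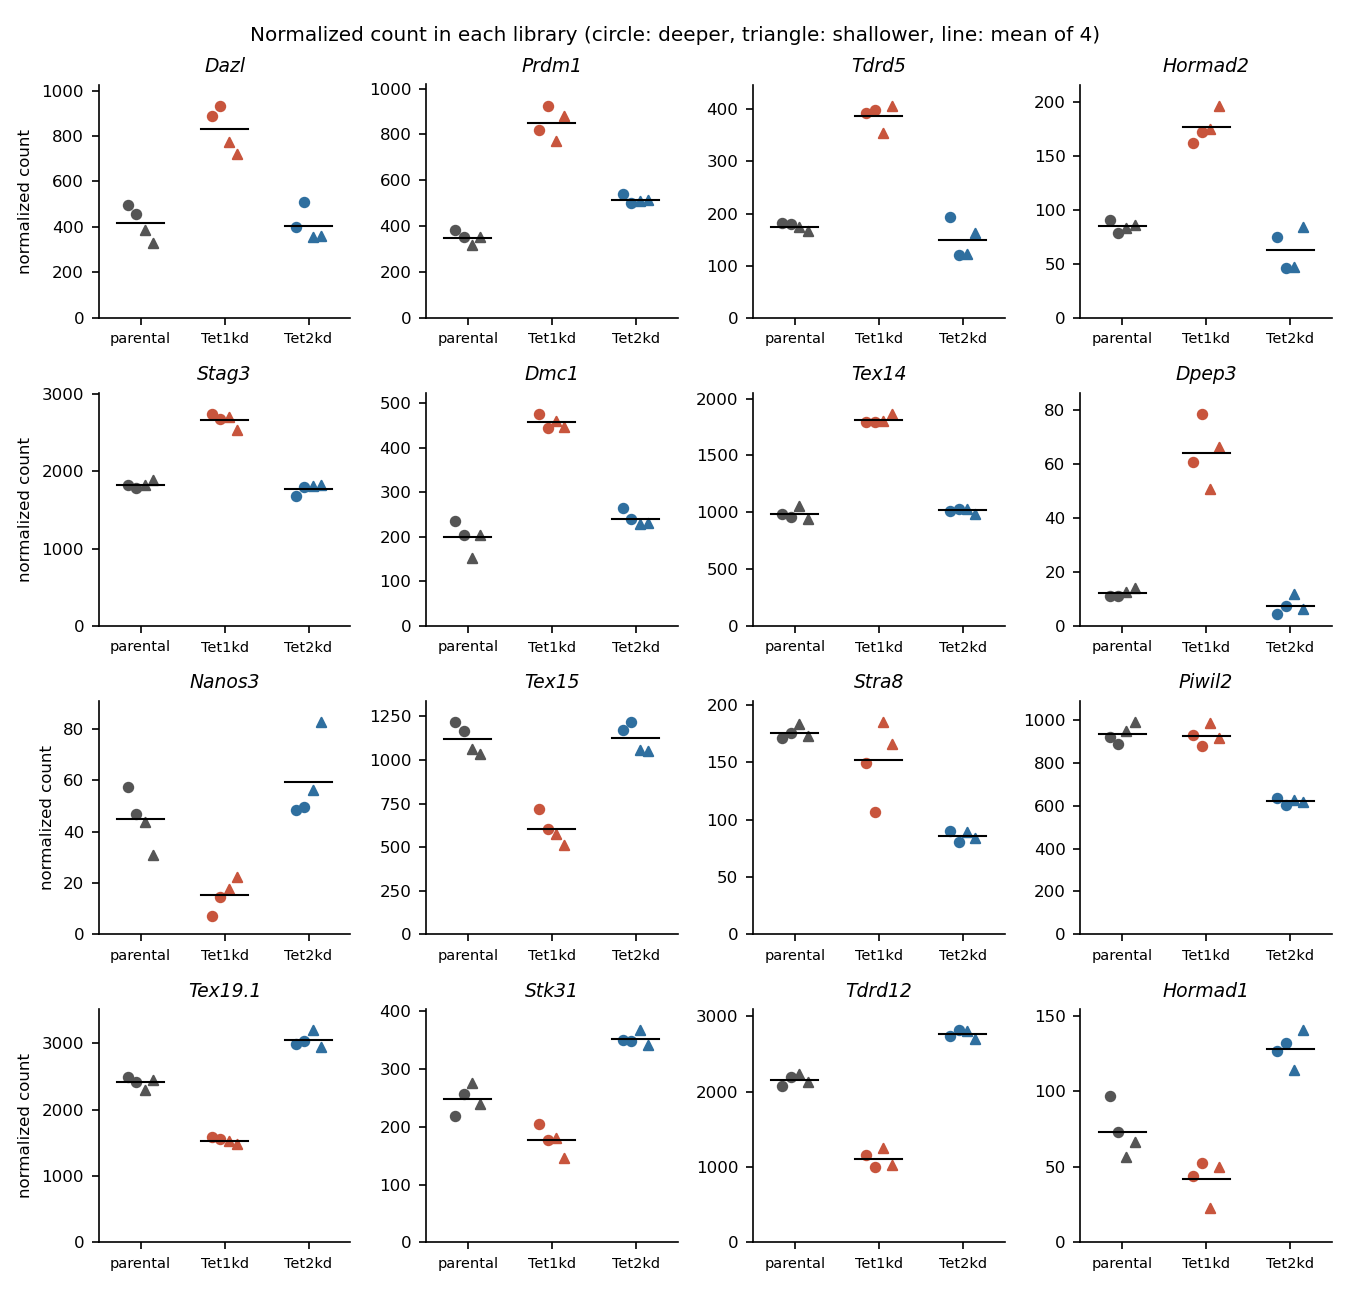
Normalized count (vertical axes, from 0) of 16 genes in each of the 4 parental, 4 Tet1kd and 4 Tet2kd libraries, with circles for the deeper and triangles for the shallower libraries and a line at the mean of 4. In the bottom row, Tex19.1, Stk31, Tdrd12 and Hormad1 had every Tet1kd library below and every Tet2kd library above the parental libraries.

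Genes of the chromosome axis and the synaptonemal complex split within the role: 2 of 7 rose and 2 of 7 fell in Tet1kd, and 1 rose in Tet2kd. The shares called were 57.1% and 14.3%, against 30.4% and 7.14% of all genes tested. The related axis genes Hormad1 and Hormad2, whose proteins mark unsynapsed chromosomes, moved in opposite directions in Tet1kd. Hormad1 (ENSMUSG00000028109, chromosome 3) had normalized counts of 96.6, 72.8, 56.7 and 66.4 in the parental, 44.1, 52.3, 22.8 and 49.7 in the Tet1kd and 127, 132, 114 and 140.3 in the Tet2kd libraries. The groups did not overlap, and Tet2kd was highest. Hormad1 fell by 0.79 on the log2 scale in Tet1kd (adjusted p = 0.0137) and rose by 0.81 in Tet2kd (adjusted p = 0.00526) in the authors' deposited tables. In limma, leaving out Tet2kd library d, parental library c or parental library d ended the call of the rise in Tet2kd, with log2 differences of 0.79, 0.72 and 0.80 and limma adjusted p of 0.0546, 0.0655 and 0.0533.

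Hormad2 (ENSMUSG00000020419, chromosome 11) had 90.8, 79.1, 83.6 and 86.5 in the parental, 162, 173, 175 and 197 in the Tet1kd and 75.2, 45.9, 47.4 and 84.2 in the Tet2kd libraries. Tet1kd stood apart above the other groups. Hormad2 rose with a log2 fold change of 1.06 in Tet1kd (adjusted p = 1.04e-07), against -0.43 in Tet2kd (adjusted p = 0.323), in the authors' deposited tables. Sycp3, a lateral element protein, had 199.7 to 239.7 in the parental, 249.7 to 392 in the Tet1kd and 224 to 326 in the Tet2kd libraries. Sycp3 rose with a log2 fold change of 0.53 in Tet1kd (adjusted p = 0.00302) in the authors' deposited table. Its exons share 660 of 1264 bases with exons of Chpt1 on the other strand, so reads of these genes may be mixed. In the shallower libraries alone limma did not call Sycp3 (0.41, adjusted p = 0.0731). Sycp1, the transverse filament protein, had 51.0 to 86.9 in the parental and 44.3 to 55.5 in the Tet1kd libraries, which overlapped. Sycp1 fell by 0.60 on the log2 scale (adjusted p = 0.0246) in the authors' deposited table, and limma did not call it (adjusted p = 0.0507). The others did not pass the first test in the authors' deposited tables, and the second called Syce2 in Tet1kd (adjusted p = 0.0389). Syce2 had means of 1386, 1519.5 and 1298, Syce1 of 74.1, 93.1 and 94.9, and Sycp2 of 20.4, 26.8 and 26.2 in the parental, Tet1kd and Tet2kd group.

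The meiotic cohesin subunits rose together in Tet1kd, 3 of 3, and 1 of them also rose in Tet2kd. Over all genes tested, 15.2% rose in Tet1kd and 3.85% in Tet2kd. Cohesin with these subunits holds sister chromatids along the meiotic axis. Stag3 (ENSMUSG00000036928, chromosome 5) had normalized counts of 1816, 1786, 1819 and 1885 in the parental, 2740.4, 2675, 2698 and 2536 in the Tet1kd and 1678, 1793, 1810.2 and 1821 in the Tet2kd libraries. The Tet1kd libraries lay far above the other groups, which overlapped. Stag3 rose with a log2 fold change of 0.54 in Tet1kd (adjusted p = 3.69e-09), against -0.04 in Tet2kd (adjusted p = 0.946), in the authors' deposited tables. Smc1b (ENSMUSG00000022432, chromosome 15) had 109.7, 87.7, 105 and 92.6 in the parental, 176, 146, 191 and 135 in the Tet1kd and 169, 151, 162 and 164 in the Tet2kd libraries. Both knockdowns were above the parental group and overlapped with each other. Smc1b rose with log2 fold changes of 0.72 in Tet1kd (adjusted p = 0.000252) and 0.71 in Tet2kd (adjusted p = 0.00256) in the authors' deposited tables. The difference between the knockdowns was -0.01 ± 0.13 (log2, SE, limma adjusted p = 0.976). Rec8 had 388 to 427 in the parental, 434 to 608 in the Tet1kd and 366 to 461 in the Tet2kd libraries, and the gap between parental and Tet1kd was small. Rec8 rose with a log2 fold change of 0.36 in Tet1kd (adjusted p = 0.0324) in the authors' deposited table, with log2 differences of 0.19 in the deeper and 0.50 in the shallower libraries. In the deeper libraries alone limma did not call Rec8 (adjusted p = 0.168).

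Of the meiotic recombination genes, Dmc1 and Tex11 rose and Tex15 fell in Tet1kd, and none was called in Tet2kd. In Tet1kd 75.0% of them were called, against 30.4% of all genes tested. Dmc1 (ENSMUSG00000022429, chromosome 15), the recombinase that carries out strand exchange between homologs, had normalized counts of 235, 204, 153 and 205 in the parental, 476, 445, 461 and 447 in the Tet1kd and 264, 239, 229.8 and 232 in the Tet2kd libraries. The Tet1kd libraries were close to each other and far above the rest. Dmc1 rose with a log2 fold change of 1.2 in Tet1kd (adjusted p = 9.28e-18), against 0.28 in Tet2kd (adjusted p = 0.372), in the authors' deposited tables. The neighbour medians of the chromosome 15 genes Dmc1, Smc1b and Mov10l1 were 0.24, 0.30 and 0.34 in Tet1kd in the authors' deposited table.

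Tex15 (ENSMUSG00000009628, chromosome 8), which acts in repair of meiotic breaks and in transposon silencing, had 1217, 1164, 1062 and 1034 in the parental, 719, 606, 575 and 512 in the Tet1kd and 1171, 1217, 1056 and 1052 in the Tet2kd libraries. Parental and Tet2kd libraries spanned almost the same range, and Tet1kd lay below. Tex15 fell by 0.89 on the log2 scale in Tet1kd (adjusted p = 3.74e-14), against 0.01 in Tet2kd (adjusted p = 1.00), in the authors' deposited tables. Tex11, an X-linked gene of crossover formation, had 162 to 211 in the parental, 226 to 344 in the Tet1kd and 187 to 208 in the Tet2kd libraries. Tex11 rose with a log2 fold change of 0.51 in Tet1kd (adjusted p = 0.0140) in the authors' deposited table. Spo11, whose product makes the meiotic double-strand breaks, had 9 reads in the parental, 0 in the Tet1kd and 4 in the Tet2kd libraries. The first test in the authors' deposited table did not call it in Tet1kd (adjusted p = 0.176), and the second did (adjusted p = 0.0401).

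Of the 7 spermatogenic genes of other roles, Tex14 and Dpep3 rose and Tex101 fell in Tet1kd, and Tuba3a rose in Tet2kd. The shares called were 42.9% and 14.3%, against 30.4% and 7.14% of all genes tested. Dpep3 (ENSMUSG00000031898, chromosome 8), a dipeptidase of the testis, had normalized counts of 10.9, 11, 12.7 and 13.9 in the parental, 60.7, 78.5, 50.7 and 66.2 in the Tet1kd and 4.34, 7.34, 11.9 and 6.24 in the Tet2kd libraries. Each Tet1kd library was several times the highest library of the other groups. Among the 41 genes with parental reads, Dpep3 had the highest fold in Tet1kd, 5.28 (log2 2.40, adjusted p = 2.81e-12), in the authors' deposited table, and a log2 fold change of -0.70 in Tet2kd (adjusted p = 0.644). Its 20 neighbours had a median of -0.06 in Tet1kd in the authors' deposited table.

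Tex14 (ENSMUSG00000010342, chromosome 11), a protein of the bridges that join dividing germ cells, had 988, 959, 1054 and 937 in the parental, 1791, 1794, 1803 and 1865 in the Tet1kd and 1014, 1031, 1033 and 988 in the Tet2kd libraries. Parental and Tet2kd overlapped, and Tet1kd stood apart. Tex14 rose with a log2 fold change of 0.88 in Tet1kd (adjusted p = 2.79e-19), against 0.05 in Tet2kd (adjusted p = 0.947), in the authors' deposited tables. Tex101, a germ cell surface protein, had 17.4, 11.7, 19.8 and 21.6 in the parental, 1.1, 2.38, 1.27 and 1.38 in the Tet1kd and 8.68, 2.75, 2.97 and 7.79 in the Tet2kd libraries. Both knockdowns were below every parental library, on few reads (67 parental, 7 Tet1kd and 22 Tet2kd). Tex101 fell by 3.53 on the log2 scale in Tet1kd (adjusted p = 1.42e-05), and in Tet2kd its value of -1.67 was not past the threshold in the first test (adjusted p of 0.0930) but was in the second (adjusted p of 0.0349), in the authors' deposited tables.

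Tuba3a, an alpha-tubulin of the testis, had 132 to 169.8 in the parental, 165 to 177 in the Tet1kd and 225 to 273 in the Tet2kd libraries. Tuba3a rose with a log2 fold change of 0.79 in Tet2kd (adjusted p = 2.3e-05) in the authors' deposited table. It has a near-identical copy, Tuba3b, so its reads are uncertain. Slc25a31, an ADP/ATP carrier of germ cells, had 28.3 to 40.1 in the parental and 16.5 to 22.2 in the Tet1kd libraries without overlap. With a log2 difference of -0.88 and an adjusted p of 0.0523 it was short of the threshold in the authors' deposited table, and limma called it (adjusted p = 0.00610). Brdt, a bromodomain protein of spermatocytes and spermatids, and Taf7l, a germ cell subunit of the transcription machinery, did not pass in the authors' deposited tables. Their means were 46.2, 28.6 and 44.9 and 59.2, 44.2 and 35.8 in the parental, Tet1kd and Tet2kd group, and limma called Brdt lower in Tet1kd (adjusted p = 0.0407) and Taf7l lower in Tet2kd (adjusted p = 0.0327).

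**Figure D4:**
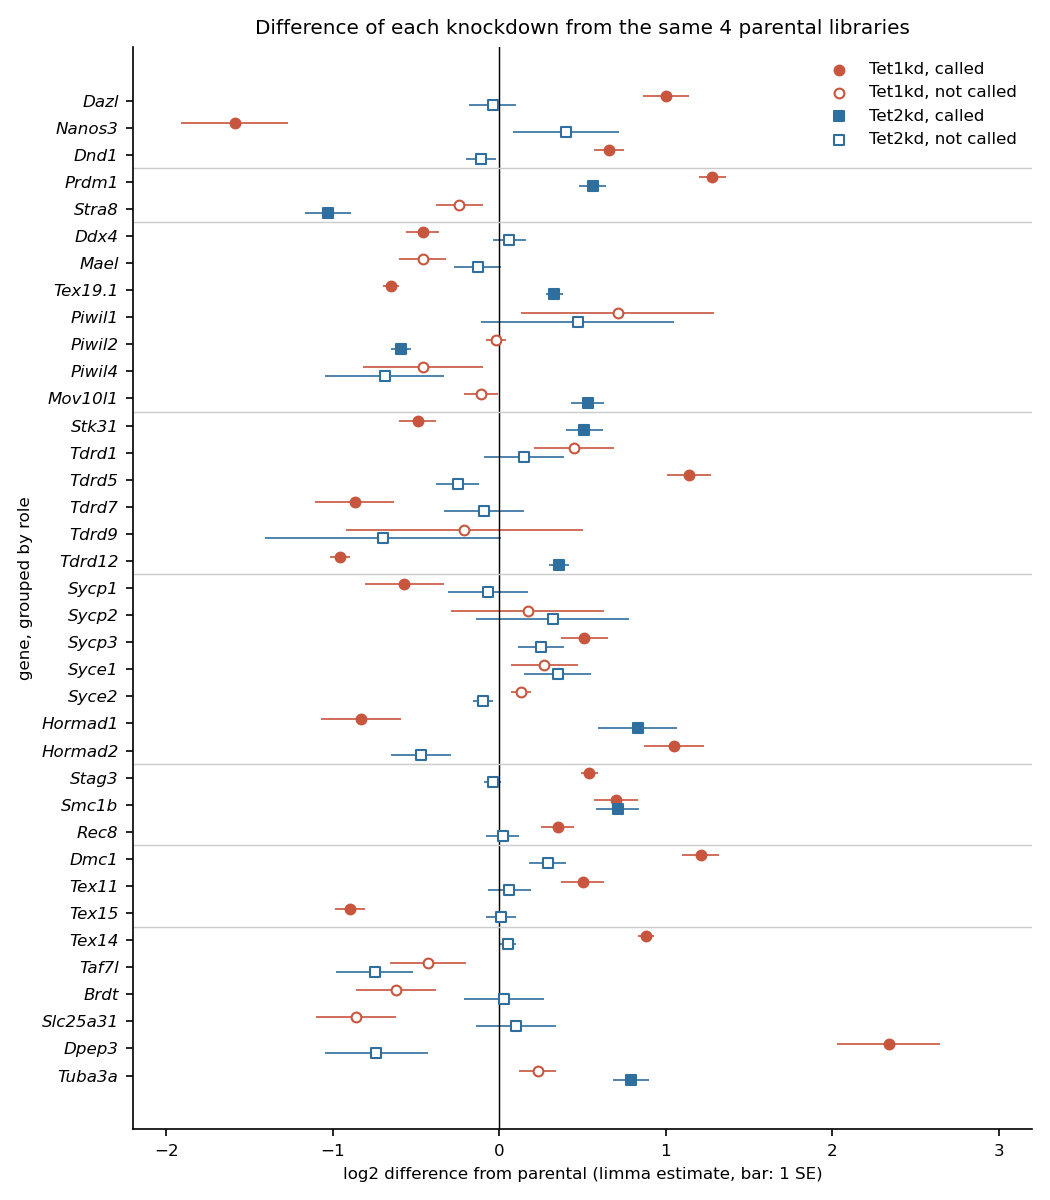
Log2 difference of Tet1kd (circles) and Tet2kd (squares) from the same 4 parental libraries for the 37 genes with a mean of at least 10, as limma estimates with bars of 1 SE; filled symbols were called in the deposited tables. The Tet1kd estimates ran from -1.59 (Nanos3) to 2.34 (Dpep3), and the Tet2kd estimates from -1.03 (Stra8) to 0.83 (Hormad1).

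Because a gene past the threshold in 1 knockdown alone is not thereby shown to differ between them, Tet1kd and Tet2kd libraries were compared directly with limma. Of the 42 genes, 37 had a mean of at least 10 and entered the fit, and 26 passed an adjusted p of 0.05, 14 higher and 12 lower in Tet1kd. Over all 14367 genes tested 50.6% passed, 25.8% higher and 24.9% lower in Tet1kd. Dpep3 stood highest in Tet1kd over Tet2kd, by 3.09 ± 0.31 (log2, SE, limma adjusted p = 7.61e-07). Next were Hormad2 with a difference of 1.52 ± 0.18 and Tdrd5 with 1.4 ± 0.13, both genes that rose in Tet1kd. Lowest in Tet1kd against Tet2kd was Nanos3, by -1.99 ± 0.32 (limma adjusted p = 8.33e-05). The genes that were below parental in Tet1kd and above it in Tet2kd differed by -1.66 ± 0.24 (Hormad1), -1.32 ± 0.06 (Tdrd12), -1.0 ± 0.11 (Stk31) and -0.99 ± 0.05 (Tex19.1). For each of them all 4 Tet1kd libraries were below all 4 Tet2kd libraries, which follows from their order around the parental libraries given above. Stra8 and Piwil2, which fell in Tet2kd, were higher in Tet1kd than in Tet2kd by 0.79 ± 0.14 and 0.58 ± 0.06. Mov10l1 and Tuba3a, which rose in Tet2kd, were lower in Tet1kd than in Tet2kd, by -0.65 ± 0.10 and -0.56 ± 0.11. For Sycp3 and Sycp1, which were called in Tet1kd alone, the difference between the knockdowns was 0.26 ± 0.14 (limma adjusted p = 0.123) and -0.50 ± 0.24 (limma adjusted p = 0.0900), so a difference was not detected.

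Further genes of these pathways were counted in the authors' deposited tables from lists of known pathway genes. Of 32 other meiosis genes, 12 rose and 2 fell in Tet1kd with a median log2 fold change of 0.39, and 1 of 31 rose and 1 fell in Tet2kd with a median of 0.04. Over all genes tested, 15.2% rose and 15.3% fell in Tet1kd and 3.85% rose and 3.29% fell in Tet2kd, with medians of -0.03 and -0.01. The same background shares apply to the other lists counted here. Among genes with a mean of at least 10 more were called, 44.8% in Tet1kd and 10.7% in Tet2kd. Examples in Tet1kd were Cntd1, a factor of crossover maturation (log2 fold change 1.51, adjusted p = 6.31e-20), the crossover gene Msh5 (1.43, adjusted p = 1e-08) and the repair gene Rad51c (0.75, adjusted p = 4.81e-10) in the authors' deposited table. Rad51c is an expressed gene next to the member Tex14 on chromosome 11, which also rose. Whether they moved separately was not tested. Mns1 fell in both knockdowns, with log2 fold changes of -0.75 and -0.68 (adjusted p = 1.27e-06 and 0.000319), in the authors' deposited tables. Of 10 other piRNA pathway genes, 2 rose and 1 fell in Tet1kd and 1 rose in Tet2kd in the authors' deposited tables. Ddx25, an RNA helicase of spermatids, fell by 0.89 (log2, adjusted p = 5.22e-07) and Exd1 rose by 0.75 (adjusted p = 0.00160) in Tet1kd in the authors' deposited table.

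Genes active in primordial germ cells, many of which embryonic stem cells share, formed a further list. Of its 11 genes, 5 rose and 4 fell in Tet1kd and 5 rose and none fell in Tet2kd in the authors' deposited tables. Prdm14 rose with log2 fold changes of 1.08 in Tet1kd and 0.74 in Tet2kd (adjusted p = 3.18e-23 and 3.81e-10), and Tfap2c with 0.85 and 0.59 (adjusted p = 2.85e-19 and 1.22e-08) in the authors' deposited tables. Dppa3 (Stella) protects DNA methylation in the fertilized egg. It fell by 1.43 in Tet1kd (log2, adjusted p = 2.19e-18) and rose by 0.99 in Tet2kd (adjusted p = 3.31e-19) in the authors' deposited tables. Of 25 known repressors of germline genes, 2 rose and 8 fell in Tet1kd and 2 fell in Tet2kd in the authors' deposited tables. Those with the smallest p in Tet1kd were the DNA methyltransferase gene Dnmt3a, Cbx3, Rybp and L3mbtl2, with log2 fold changes of -0.80, -1.34, -0.72 and -0.63 (adjusted p from 2.14e-17 to 5.1e-06) in the authors' deposited table. Dnmt3a and Max had log2 fold changes of -0.25 and -0.24 in Tet2kd (adjusted p = 0.0229 and 0.0496) in the authors' deposited table. Of 12 late spermatid genes 7 were at 0 in every group and none was called, and of 12 oocyte genes 2 fell in Tet1kd (Zp3 and Bmp15, log2 fold changes -1.17 and -4.0) and 1 rose in Tet2kd (Ooep, 0.25) in the authors' deposited tables. Among 15 feeder fibroblast markers, 1 rose and 13 fell in Tet1kd, and 5 rose and 1 fell in Tet2kd, in the authors' deposited tables.

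Exon use, the share of a gene's reads in each exon bin, was taken from the authors' deposited DEXSeq tables, which hold 904 bins of the 42 genes. In Tet1kd 1 of 561 tested bins of these genes passed an adjusted p of 0.05, where 2.56% of all tested bins did, and in Tet2kd 5 of 547 passed, where 2.45% did, in the authors' deposited tables. The bin in Tet1kd was bin 17 of Tdrd12 (adjusted p = 0.0170), used more than in parental cells in the authors' deposited table. In Tet2kd, bin 9 of Syce2 was used more and its bin 7 less (adjusted p = 0.000463 and 0.0154), and bin 31 of Mov10l1 was used more (adjusted p = 0.0430), in the authors' deposited table. The remaining bins, bin 11 of Piwil2 and bin 10 of Tdrd7, rested on mean normalized counts of 5.23 and 2.75 in the authors' deposited table.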

How the data were processed

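Poly(A) RNA of 12 libraries was sequenced on SOLiD, per the labels' protocols. The authors used TopHat2 (2.0.0), SAMtools (0.1.18) and DESeq, whose version is not stated, with the builds mm9 and NCBIM37, per the submitters' processing notes. The authors deposited, per knockdown, a gene table and an exon table. Per the file headers, the gene tables hold a group mean signal (normalized counts), its ratio (fold), its log2 value and p-values of 2 tests with their adjusted p-values. The deposited exon tables of DEXSeq hold a mean signal per bin, a log2 ratio (sign turned here to knockdown over parental, only directions used), p-values and a dispersion score. The counting rule and strand were not given in the sources used here.

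Reads per library were recovered from the deposited means, since only certain sets of 4 whole numbers of reads, scaled by the size factors, match them to the last of 15 digits. For each member with reads in a group exactly 1 set matched. Over all genes with reads, 21143 of 21658 were recovered in Tet1kd and 20782 of 21368 in Tet2kd. They held 67.0% and 64.3% of the reads, since knockdown means above 10000 were not tried. Genes not recovered in every library were left out of limma and of the shares of genes without overlap. On simulated data, 3346 of 3349 answers were right for a knockdown group, and all 3544 for the parental group. Tet2kd values were multiplied by 1.09, the ratio of the parental size factors of the tables. The letters a to d follow the size factors. The split into deeper and shallower libraries was taken from the values, and deviations of libraries of different groups correlated at 0.451 to 0.657 within it and at -0.616 to -0.450 across it.

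The main test was the authors' deposited DESeq adjusted p at 0.05. Differences between knockdowns were tested with limma (3.58.1, R 4.3.3) on log2(normalized count + 0.5) for genes whose mean was at least 10, and log2 differences are on that scale. On simulated data with 14343 genes limma called 91 of 100 genes changed 2-fold and 59 of 100 changed 1.4-fold in Tet1kd against parental, and 89 and 65 of 100 in Tet2kd. The simulated libraries varied independently, without the shared deviations by depth and by pair of the real ones. These shares therefore need not hold for the real libraries. The alternatives were the second deposited test, other thresholds, pseudocounts and filters, and leaving out each library. Further ones were a term for the split into deeper and shallower libraries and averaged pairs (chosen after seeing the data). That split was taken from the values and is no recorded batch. Exon lengths, neighbours and overlaps come from GENCODE M21 (GRCm38), used for names and lengths only. Promoters come from RefSeq (GRCm38.p6).

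The members, the roles and the other lists were chosen with earlier results of these data known. All members are accounted for. Every called member is named with its values, and of each other list at most the 4 genes with the smallest adjusted p. Pou5f1, Nanog and Sox2 are named beyond that rule, as defining markers of the labelled cells. The 6 promoters printed and the 16 genes plotted by library were chosen after their values were seen. Spata22 and Lhx8 of these lists matched no gene.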

Additional observations from a re-analysis of the deposited data

Results flagged for a closer look

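In 4 of 111 combinations of a gene and a group, 1 of the 4 libraries stood apart from the other 3 by Dixon's 95% criterion, which chance meets in about 1 of 20 groups. Tdrd7, a Tudor domain gene, had its lowest library at 44.6 in the parental group and at 45.9 in the Tet2kd group, in both cases library b. Tex14, a germ cell bridge gene, had its highest Tet1kd library at 1865, and Taf7l, a germ cell transcription factor subunit, had its highest Tet1kd library at 59.4.

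Tet1kd and Tet2kd libraries differed for 26 of the 37 genes tested directly (limma, adjusted p from 2.46e-10 to 0.0351), where 50.6% of all genes tested did so. Knockdown and choice of clones cannot be told apart in this comparison either. Differences of Tet1kd minus Tet2kd on the log2 scale were positive for 14 genes: 1.04 for Dazl, 0.77 for Dnd1, 0.72 for Prdm1, 0.79 for Stra8, 0.58 for Piwil2, 1.4 for Tdrd5, 0.23 for Syce2, 1.52 for Hormad2, 0.58 for Stag3, 0.33 for Rec8, 0.92 for Dmc1, 0.44 for Tex11, 0.83 for Tex14 and 3.09 for Dpep3. They were negative for 12 genes: -1.99 for Nanos3, -0.52 for Ddx4, -0.99 for Tex19.1, -0.65 for Mov10l1, -1.0 for Stk31, -0.78 for Tdrd7, -1.32 for Tdrd12, -1.66 for Hormad1, -0.91 for Tex15, -0.65 for Brdt, -0.97 for Slc25a31 and -0.56 for Tuba3a. Of these, the difference of Brdt was no longer called without 1 library, for each of the 8 Tet1kd and Tet2kd libraries but Tet1kd library d, with pairs averaged (adjusted p = 0.111), with no filter (adjusted p = 0.0699) or within either depth. Slc25a31 and Tex11 were not called in the shallower libraries (adjusted p = 0.175 and 0.115), Tdrd7 was not called in the deeper ones (adjusted p = 0.244), and Rec8 was not called without Tet1kd library c or Tet2kd library a. The genes came from every role. The largest positive differences were at the dipeptidase gene Dpep3 and the axis gene Hormad2, and the largest negative ones at Nanos3 and the axis gene Hormad1.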

How the results depend on the processing

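The number of members called stayed within 1.5 times of 23 in Tet1kd, 10 in Tet2kd and 26 between the knockdowns under every alternative run but the 2-fold requirement, which left 7 and 1. Leaving out each library, while the library paired with it stayed in, gave 23 to 26, 9 to 12 and 24 to 27 members. Over all alternatives no called fold change reversed; 17 of 376 Tet1kd values, 5 of 170 Tet2kd values and 16 of 390 differences lost the call (most often Sycp1, Hormad1 and Brdt). Sycp1 was called by limma only with a pseudocount of 5, with the depth split as a term, in the deeper libraries or without parental library d. Tdrd7 and Rec8 lost the call in the deeper and Sycp3 in the shallower libraries, and the difference of Rec8 between the knockdowns without Tet1kd library c or Tet2kd library a. The cause was not tested. Called exon bins numbered 1 in Tet1kd, 0 at an adjusted p of 0.01 and 10 at 0.1. They numbered 5 in Tet2kd, 2 at 0.01 and 3 over bins with a mean of at least 10. In the 250 bases before the start, 12 and not 15 promoters held TCCCGC and 15 held CACGTG. No paired analysis was possible because the recovered libraries could not be tied to the replicate numbers of the labels. Depth limits Nanos2, Asz1, Tdrd6 and Spo11, with at most 11 reads in a group.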
